A study of Mus musculus with 8 samples.

Results

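Voltage-gated calcium channel subunit genes were examined in left ventricles from 8 inbred mice, all C57Bl/6j males. The low salt group had 4 mice (L1 to L4) fed chow with 0.05% sodium and the normal salt group had 4 mice (N1 to N4) fed chow with 0.4% sodium. Both diets were given for 8 weeks, and the mice were killed at 16 weeks of age. The group consists of 9 genes chosen by name: Cacna1c, Cacna1d, Cacna1g, Cacna1h, Cacnb1, Cacnb2, Cacnb3, Cacna2d1 and Cacna2d2. All probes carrying one of these names in the scanner tables were taken, which gave 17 of the 39429 probes on the array. Of the 17, 12 probes of 8 genes were well above background in at least 4 mice and were tested.

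RNA came from septum, free wall and apex together, so these are bulk samples in which fewer cells of a type and less RNA per cell cannot be told apart. Each of the 4 arrays carried 2 mice of the same diet, one labelled with Cy3 and one with Cy5, so diet differed between arrays and dye within them. The arrays are called L1-2, L3-4, N1-2 and N3-4 after their mice; all lay on 1 slide, where place and diet cannot be told apart. Between 53.0% and 66.3% of spots that were not controls were well above background per sample, at median spot intensities of 116 to 147. All 7 cardiomyocyte markers checked for the ventricle were measured, though not all of them are particular to it. Myh6, Myl2, Myl3, Tnni3, Tnnt2 and Actc1 had log2 intensities above 17 in every mouse, and Irx4 was dimmer. Of the 7, 2 were higher and 5 lower on low salt, with a median difference of -0.07 and 0 called. The differences ran from -0.38 for Actc1 to 0.31 for Irx4. Actc1 lay between 17.69 and 18.40 on low salt and between 17.89 and 18.95 on normal salt.

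Voltage-gated calcium channels open when the membrane depolarises and let calcium into the cell. Each L-type channel is built from a pore-forming alpha1 subunit, an intracellular beta subunit that carries the pore to the membrane and tunes its opening, and an extracellular alpha2delta subunit that aids trafficking. In working ventricular muscle the L-type current through the Cacna1c pore triggers calcium release from the sarcoplasmic reticulum and so contraction. T-type channels open at more negative voltages, are prominent in pacemaker tissue and the developing heart, and need no beta subunit.

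The probes decide which part of a subunit transcript is read, and those that the results below turn on are shown here as in the array design, 5′ to 3′. Capitals mark the stop codon that ends the Cacna1g reading frame, where the probe lies at the end of the coding sequence. Of the Cacna1h probe and the last Cacnb2 probe the first 30 bases are given.
Cacna1c A_55_P2014154: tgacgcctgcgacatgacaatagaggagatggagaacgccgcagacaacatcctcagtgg
Cacna1g A_55_P2132756: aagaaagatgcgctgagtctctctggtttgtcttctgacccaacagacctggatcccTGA
Cacna1h A_55_P1986591: cttcttctgcctcgggcaaaccacgcggcc
Cacnb1 A_55_P2012563: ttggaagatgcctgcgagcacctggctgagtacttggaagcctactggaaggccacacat
Cacnb2 A_52_P209514: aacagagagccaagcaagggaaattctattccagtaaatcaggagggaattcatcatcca
Cacnb2 A_51_P283300: tcaaaagctgtttgggtagctgccatctca
On the mm9 build the Cacna1c probe lies at chr6:118544079-118544138 on the minus strand. The Cacna1g probe lies at chr11:94270459-94270518, the Cacna1h probe at chr17:25569818-25569877 and the Cacnb1 probe at chr11:97866536-97866595, all on the minus strand. The first Cacnb2 probe spans chr2:14882385-14885558 on the plus strand, which is 3174 bases for 60 letters, so it joins separate stretches of the gene. The second Cacnb2 probe lies 22353 bases further along at chr2:14907912-14907971. The array design gives no exon or untranslated region for a probe. The 126 pairs of probes to different genes shared at most 10 letters in a row, so no probe of the group holds a long stretch of another.

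None of the 12 tested probes differed between the diets past the threshold (0 of 12; limma, Benjamini-Hochberg adjusted p between 0.444 and 0.952, threshold 0.05). Over all 23236 probes tested, 189 passed, which is 0.813% (0.779% higher and 0.0344% lower on low salt), and with the mouse number as a block 312 passed, or 1.34%, again with 0 of the 12. When only parts of the arrays with even signal between the diets were kept, 1 of 20068 probes passed, or 0.00498%. Of the 11 subunit probes in those parts 0 passed. An unadjusted p under 0.05 was found for 1 of the 12, Cacnb2 A_52_P209514, and for 11.1% of all probes. The 12 log2 differences (low salt minus normal salt) ran from -0.29 to 0.28 with a median of -0.13, and the median over all probes was 0.01. Their median size regardless of sign was 0.14, against 0.13 for all probes. The difference was below 0 for 8 of the 12 probes, and for 47.8% of all probes. For 10 of the 12 the 95% interval lay wholly within a 1.5-fold change in either direction. The exceptions were Cacna1g A_51_P466910, whose interval reached a fold of 0.636, and Cacna2d1 A_55_P1988699, whose interval reached 0.60. The 4 arrays limit this precision. The values include an offset of 50 from the background correction, which draws the log2 differences of dim probes toward 0. With an offset of 16 the median over the 12 probes was -0.15, and Cacna1g A_51_P466910 read -0.35 against -0.27. The 1.5-fold limits therefore hold only for the values as processed here.

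**Figure D1:**
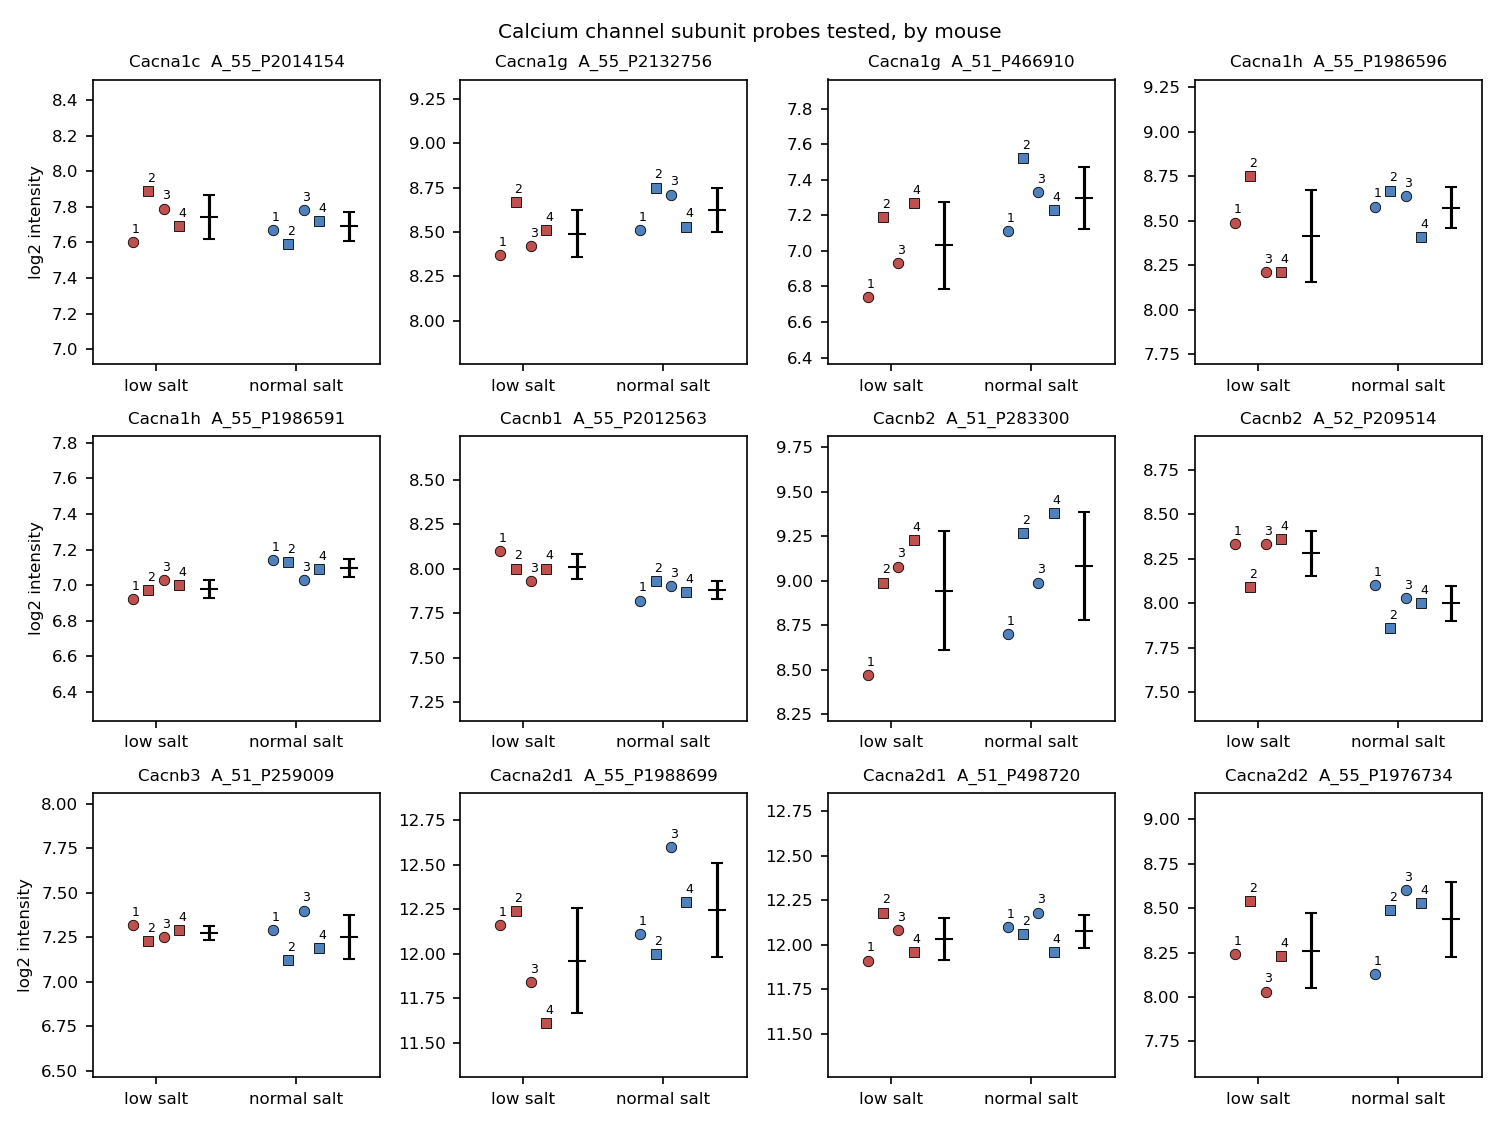
Normalised log2 intensity of the 12 tested calcium channel subunit probes in each mouse, with 4 low salt mice at the left and 4 normal salt mice at the right of each panel. Circles are Cy3 and squares Cy5 samples, numbers are mouse numbers, and bars give the mean and SD (n = 4); every panel spans the same 1.6 log2 units, and the diets overlap in all but 2 panels, those of Cacnb1 and Cacna1h A_55_P1986591.

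Cacna1c encodes the pore of the main L-type channel of ventricular muscle. Its single probe read 7.60, 7.89, 7.79 and 7.69 (log2 intensity) in L1 to L4, against 7.67, 7.59, 7.78 and 7.72 in N1 to N4. The diets overlapped, with the lowest value in N2 and the highest in L2. The means were 7.74 ± 0.12 on low salt and 7.69 ± 0.08 on normal salt (SD, n = 4 each). The difference was 0.05 ± 0.14 (SE; limma adjusted p = 0.906), with a 95% interval of the fold from 0.836 to 1.29. The sign of this difference was not stable: it was -0.03 in Cy3 samples alone and -0.08 with the scanner's processed signal.

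Cacna1d encodes an L-type pore that opens at lower voltages than that of Cacna1c and is best known in sinoatrial and atrial cells. Its 2 probes were not tested. A_55_P2125376 was well above background in 1 low salt mouse and 1 normal salt mouse, and A_51_P251209 in 1 low salt mouse and 0 normal salt mice. The first read 6.25 to 6.77 on low salt and 6.39 to 6.72 on normal salt, and the second 6.43 to 6.83 on low salt and 6.34 to 6.63 on normal salt. These values stand near the lowest signal that counted as well above background, which was 6.40 to 6.85 depending on the sample, so no change of Cacna1d could be read from them.

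Cacna1g and Cacna1h encode T-type pores. Cacna1g A_55_P2132756, at the end of the coding sequence, read 8.37, 8.67, 8.42 and 8.51 in L1 to L4, against 8.51, 8.75, 8.71 and 8.53 in N1 to N4. The diets overlapped: L1 and L3 were lowest, and L2 lay above N1 and N4. The difference was -0.13 ± 0.15 (SE; limma adjusted p = 0.754). Cacna1g A_51_P466910, 536 bases further downstream, read 6.74, 7.19, 6.93 and 7.27 on low salt and 7.11, 7.52, 7.33 and 7.23 on normal salt. It was well above background in 3 of 4 low salt mice and in 4 of 4 normal salt mice. Its difference was -0.27 ± 0.17 (SE; limma adjusted p = 0.578). The values of the 2 Cacna1g probes correlated at r = 0.86 over the 8 mice after the mean of each dye was removed. This r is a description of 8 samples that share 4 arrays, with the diet means left in.

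Cacna1h has 3 probes. A_55_P1986591 lies toward the 5′ side of the gene and A_55_P1986596 toward the 3′ side, with 58523 bases of genome between them. The 5′-side probe read 6.92, 6.97, 7.03 and 7.0 on low salt and 7.14, 7.13, 7.03 and 7.09 on normal salt. No low salt value reached a normal salt value, though L3 and N3 differed only beyond the second decimal, and the spread within each diet was small (SD 0.05 in both). Among all probes tested, 12.7% had diets that did not overlap, and 4.94% had all low salt mice below. The difference was -0.12 ± 0.09 (SE; limma adjusted p = 0.638), and it was -0.03 with the local trend of signal over the array subtracted.

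The 3′-side Cacna1h probe read 8.49, 8.75, 8.21 and 8.21 on low salt and 8.58, 8.67, 8.64 and 8.41 on normal salt. L3 and L4, from 1 array, gave the 2 lowest values, while L2 gave the highest of all 8. The difference was -0.16 ± 0.17 (SE; limma adjusted p = 0.753), and it was 0.05 without array L3-4 and -0.36 without array L1-2 (adjusted p = 0.406). The third probe, A_52_P588378, 933 bases downstream of the 5′-side one, read 6.29 to 6.47 on low salt and 6.36 to 6.63 on normal salt and was not well above background in any mouse. The tested pair correlated at r = 0.13 over the 8 mice.

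Beta subunits bind the linker between the first and second repeats of the pore. Cacnb1, best known as the beta subunit of skeletal muscle, read 8.10, 8.00, 7.93 and 8.00 on low salt and 7.82, 7.93, 7.90 and 7.87 on normal salt. The diets did not overlap, with low salt above, which held for 7.78% of all probes tested. The means were 8.01 ± 0.07 on low salt and 7.88 ± 0.05 on normal salt (SD, n = 4 each), and the difference was 0.13 ± 0.10 (SE; limma adjusted p = 0.648). The interval of the fold ran from 0.931 to 1.285.

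Cacnb2 encodes the main beta subunit of ventricular muscle, and its 2 tested probes had opposite signs. A_52_P209514, the probe that joins separate stretches, read 8.33, 8.09, 8.33 and 8.36 on low salt and 8.10, 7.86, 8.03 and 8.00 on normal salt. L1, L3 and L4 lay above every normal salt mouse, and L2 lay just under N1. The means were 8.28 ± 0.13 on low salt and 8.00 ± 0.10 on normal salt (SD, n = 4 each). The difference was 0.28 ± 0.12 (SE; limma unadjusted p = 0.0456, adjusted p = 0.444), at 0.27 in Cy3 samples and 0.29 in Cy5 samples. Of the 12 probes it alone stood in a part of the arrays with uneven signal (13.6% of all probes did), where neighbouring spots were on median 0.12 higher on low salt. With that local trend subtracted the difference was 0.16 (limma adjusted p = 0.461).

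Cacnb2 A_51_P283300 lies further toward the end of the gene. It read 8.47, 8.99, 9.08 and 9.23 on low salt and 8.70, 9.27, 8.99 and 9.38 on normal salt. Mouse 1 was lowest in each diet and mouse 4 highest, and the diets overlapped through most of their range. The difference was -0.14 ± 0.18 (SE; limma adjusted p = 0.791). It was -0.35 without array L3-4 and 0.08 without array L1-2, and in each of those fits 1 array alone stands for low salt. The values of the 2 tested Cacnb2 probes correlated at r = -0.19 over the 8 mice. The third, A_55_P2186605, lies 355507 bases upstream of A_52_P209514. It read 6.58 to 6.75 on low salt and 6.17 to 6.74 on normal salt, and was well above background in 2 low salt mice and 1 normal salt mouse and was not tested.

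Cacnb3 encodes a beta subunit found widely in brain and smooth muscle. It read 7.32, 7.23, 7.25 and 7.29 on low salt and 7.29, 7.12, 7.40 and 7.19 on normal salt. All low salt values lay inside the range of the normal salt values. The difference, 0.02 ± 0.11 (SE; limma adjusted p = 0.952), was the smallest of the 12.

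**Figure D2:**
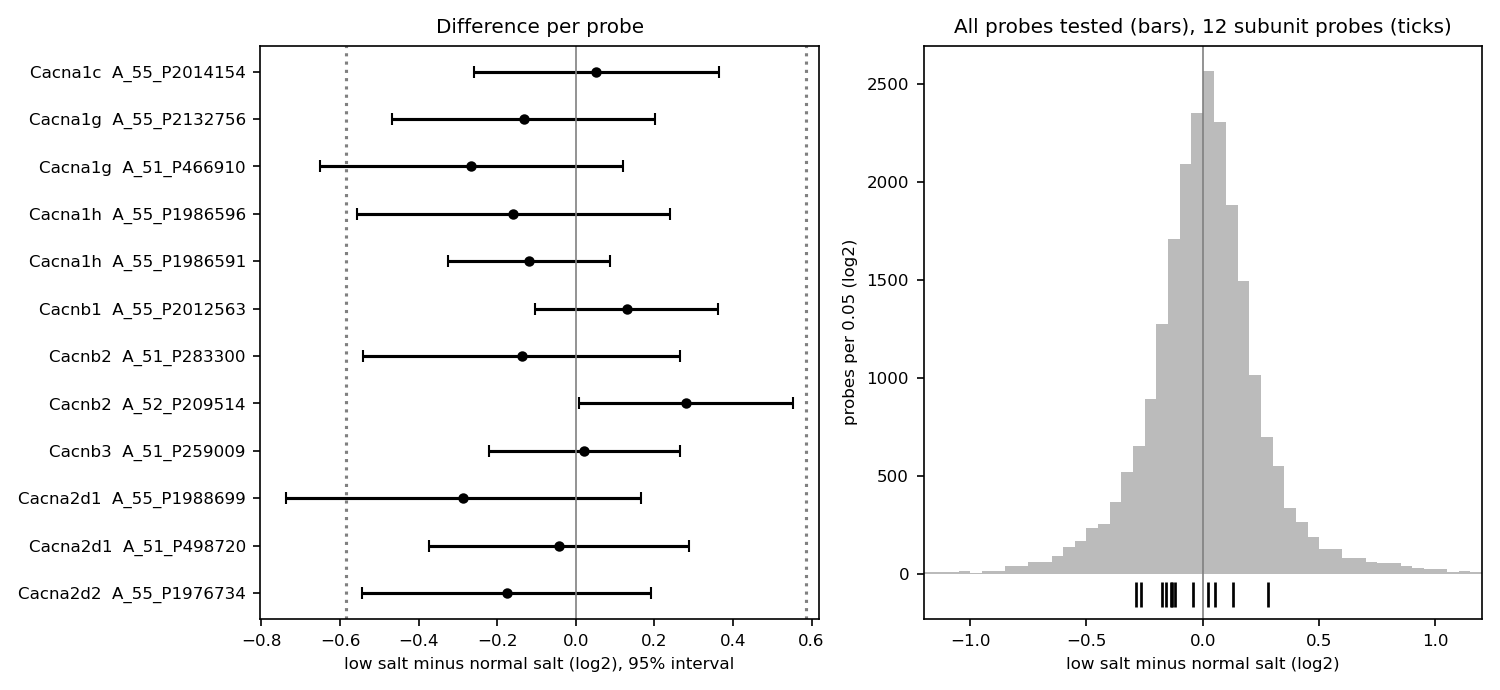
Left, the difference between low salt and normal salt (log2, values with the offset of 50) for each tested subunit probe with its 95% interval from limma. Dotted lines mark a 1.5-fold change, which 10 of 12 intervals do not reach. Right, the same differences as ticks under the distribution of all 23236 probes tested (bars, number of probes per step of 0.05), where the 12 ticks fall between -0.29 and 0.28.

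The alpha2delta subunits are glycosylated proteins held at the outer face of the membrane and are the binding site of gabapentin. Cacna2d1, the form that predominates in heart and skeletal muscle, was read by 2 probes. A_55_P1988699 read 12.16, 12.24, 11.84 and 11.61 on low salt and 12.11, 12, 12.60 and 12.29 on normal salt. L3 and L4, from 1 array, were the lowest of all 8, and L1 and L2 lay within the normal salt range. The difference of -0.29 ± 0.20 (SE; limma adjusted p = 0.608) was the furthest from 0 among the 12, and it was -0.05 without array L3-4 and -0.53 without array L1-2.

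Cacna2d1 A_51_P498720, 3542 bases upstream, did not show the low values of that array. It read 11.91, 12.18, 12.08 and 11.96 on low salt and 12.10, 12.06, 12.18 and 11.96 on normal salt. This gave a difference of -0.04 ± 0.14 (SE; limma adjusted p = 0.929). The fold interval for this probe ran from 0.772 to 1.22, against 0.60 to 1.12 for the other, and the values of the pair correlated at r = 0.42 over the 8 mice.

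Cacna2d2, an alpha2delta gene best known from cerebellum, had 1 tested probe. A_55_P1976734 read 8.24, 8.54, 8.03 and 8.23 on low salt and 8.13, 8.49, 8.60 and 8.53 on normal salt. L3 was lowest and N1 next, so both diets held low values. The difference was -0.18 ± 0.16 (SE; limma adjusted p = 0.698), and it was -0.05 without array L3-4 and also without array N3-4. It was -0.31 without array L1-2, -0.30 without array N1-2 and -0.47 with the scanner's processed signal (limma adjusted p = 0.398). The other probe, A_55_P2122879, read 6.21 to 6.51 on low salt and 6.13 to 6.92 on normal salt. It was well above background in 0 low salt mice and 1 normal salt mouse. With no filter on dim probes, the 5 untested probes had differences from -0.19 to 0.20 (limma adjusted p from 0.64 to 0.997).

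Some subunit probes varied together over the 8 mice and others did not. Each gene was read from its brightest tested probe, with the mean of each dye removed. The diet means were left in, so the correlations include any difference between the diets. Cacna2d1 and Cacna2d2 then correlated at r = 0.94 over the 8 mice, Cacna1g and Cacna1h at 0.73, and Cacna1h and Cacna2d1 at 0.72. Cacna1c correlated at 0.30 with Cacna2d1, and the lowest values were -0.57 between Cacnb1 and Cacnb2, -0.42 between Cacna1h and Cacnb2 and -0.39 between Cacna1g and Cacnb1. These values belong to the probes used. The other tested probe of the same gene correlated with the one used at 0.42 for Cacna2d1, 0.13 for Cacna1h, -0.19 for Cacnb2 and 0.86 for Cacna1g. These are descriptions of 8 samples on 4 arrays and carry no test.

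Atrial muscle markers also varied widely between mice. Myl4, the atrial light chain gene, read 11.01, 13.98, 12.35 and 12.42 on low salt and 12.38, 14.51, 15.47 and 15.27 on normal salt, at a difference of -1.97 ± 0.99 (SE; limma adjusted p = 0.499). N3 and N4, on 1 array, were the highest, and L1 the lowest. The same brightest probes of the subunits were set beside Myl4, again with the diet means left in. Over the 8 mice Myl4 correlated at r = 0.80 with Cacna2d2, 0.78 with Cacna2d1, 0.74 with Cacna1g, 0.56 with Cacnb2, 0.43 with Cacna1h, 0.34 with Cacna1c, 0.10 with Cacnb3 and -0.60 with Cacnb1. With Cacna2d2 the other atrial markers compared gave 0.81 for Sln, 0.79 for Myl7 and 0.38 for Nppa. With Cacna1g they gave 0.73, 0.77 and -0.21, and with Cacnb1 -0.57, -0.53 and 0.50. Tbx3 of the conduction system and Dbh of nerves, outside the atrial list, gave 0.64 and 0.41 with Cacna2d2. With Cacna1g these gave 0.56 and 0.60, and with Cacnb1 -0.64 and -0.79. Of 9 atrial markers 8 were tested and 7 of these were lower on low salt, with 0 past the threshold and a median difference of -0.29. Their summed linear intensity ranged from 56766 to 75114 on low salt and from 29123 to 138274 on normal salt. Such a sum weighs the brightest genes most, and Nppa was the brightest of these in every mouse. The log2 difference was -2.16 for Sln (limma adjusted p = 0.541), -1.07 for Myl7 (0.65) and 0.39 for Nppa, the atrial natriuretic peptide gene (0.784). Bmp10 was well above background in 3 mice. The part of the atrial markers in the values of the subunits was not tested.

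**Figure D3:**
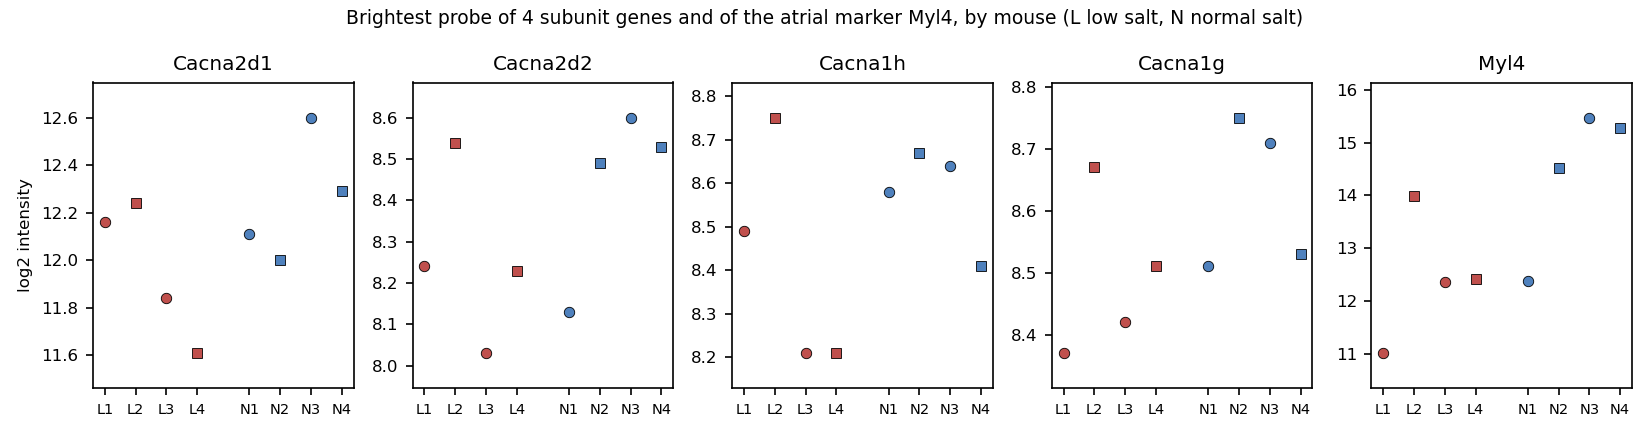
Normalised log2 intensity of the brightest tested probe of Cacna2d1, Cacna2d2, Cacna1h, Cacna1g and the atrial light chain gene Myl4 in low salt mice (L1 to L4, left) and normal salt mice (N1 to N4, right); circles are Cy3 and squares Cy5, and each panel has its own vertical scale. L3 and L4 are lowest for Cacna2d1 (11.84 and 11.61) and Cacna1h (8.21 each), and Myl4 spans 11.01 to 15.47.

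Markers of other cells that could carry such channels were measured in the same way, and 0 passed the threshold in any list. Of 8 nodal and conduction markers 4 were tested, all lower on low salt with a median of -0.26. Tbx3, a transcription factor of the conduction system, had a difference of -0.64 ± 0.18 (SE; limma adjusted p = 0.214), and the nodal transcription factor genes Shox2 and Isl1 were not well above background in any mouse. The sums ranged from 8135 to 12240 on low salt and from 10866 to 12827 on normal salt, with Smoc2 by far the brightest gene in every mouse. Of 9 nerve and Schwann cell markers 8 were tested and 7 were lower, with a median of -0.39, and Dbh, which makes noradrenaline, had a difference of -0.52 ± 0.11 (SE; limma adjusted p = 0.0983). Th, which makes the precursor of dopamine in the same pathway, had one of 0.38 ± 0.17 (SE; limma adjusted p = 0.45). For the 7 with a value in every mouse, the sums ranged from 3367 to 3938 on low salt and from 4105 to 4523 on normal salt, without overlap. Of single probes tested, 4.94% had all low salt mice below. Dbh was the brightest gene of this sum in every mouse, and its own diets overlapped, with L2 at 10.73 and N3 at 10.68. Snap25, the brightest of the nerve list, had no value in L3 and was left out of the sum. Smooth muscle and pericyte markers summed to 22154 to 32573 on low salt and 26439 to 36610 on normal salt, with 2 of 8 higher and 6 lower. Of 8 endothelial markers 6 were lower, with a median of -0.31, and Eng (-0.47), Esam (-0.57) and Tek (-0.71) had the smallest p (limma adjusted p = 0.208, 0.281 and 0.413). Kdr (0.22) and Vwf (0.04) were higher on low salt, and Pecam1 had a difference of -0.01. Endothelial markers summed to 20294 to 26856 on low salt and 21846 to 30627 on normal salt, and fibroblast markers to 38467 to 81778 on low salt and 70239 to 103376 on normal salt. Skeletal muscle markers had 3 of 7 tested, all 3 higher on low salt with a median of 0.24 and sums of 617 to 820 on low salt and 555 to 660 on normal salt, and Actn3, Myh1, Myh2 and Myh4 were not well above background in any mouse. Whether these cells contribute to the subunit values was not tested.

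Of the 17 other pore, beta, alpha2delta and gamma subunit genes 6 were tested, with 0 higher and 0 lower past the threshold and a median difference of -0.05. Cacna1s, the pore of skeletal muscle, read 11.71, 11.77, 11.33 and 11.32 on low salt and 11.34, 11.31, 11.35 and 11.14 on normal salt. L1 and L2, on 1 array, were above the rest, and the difference was 0.25 ± 0.15 (SE; limma adjusted p = 0.554). Cacna1i, a T-type pore, had a difference of -0.22 (adjusted p = 0.646) and Cacna1a, the P/Q-type pore of nerve terminals, -0.16 (adjusted p = 0.723). The 11 not tested include Cacna1b, Cacna1e, Cacng1 and Cacng5, which were not well above background in any mouse.

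Of 21 regulators and partners of the channel 20 were tested, with 0 past the threshold in either direction, 11 higher and 9 lower, and a median difference of 0.02. Akap6, which anchors protein kinase A at the nuclear envelope and sarcoplasmic reticulum, had a difference of 0.28 (limma adjusted p = 0.376), and Camk2d, the main cardiac calmodulin kinase, 0.33 (adjusted p = 0.421). Rrad, a small GTPase that binds beta subunits and restrains the L-type current, was named after its values were seen. It read 11.32, 12.02, 11.76 and 11.84 on low salt and 11.27, 10.43, 10.94 and 10.22 on normal salt, at a difference of 1.02 ± 0.42 (SE, limma adjusted p = 0.427). The diets did not overlap, with L1 just above N1, and 7.78% of all probes tested had all low salt mice above. The Rrad probe stood where neighbouring spots were 0.22 higher on low salt.

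All 11 excitation-contraction coupling partners were tested, with 0 past the threshold, 4 higher and 7 lower, and a median of -0.12. Casq2, the calcium buffer of the sarcoplasmic reticulum, read 14.19, 14.71, 14.42 and 14.64 on low salt and 14.72, 14.93, 14.86 and 15.17 on normal salt. The diets did not overlap, with L2 just under N1, and 4.94% of all probes tested had all low salt mice below. The difference was -0.43 ± 0.13 (SE, limma adjusted p = 0.244). Slc8a1, the sodium-calcium exchanger that removes the calcium entering through the channel, had a difference of -0.23 (adjusted p = 0.526).

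Patterns most like those of the pore and the beta subunit were sought among 14692 named genes for Cacna1c and 14693 for Cacnb2, by Pearson correlation of dye-centred values over the 8 mice. For Cacna1c they were Rfc3 (r = 0.99), Cnot7 (0.98), Thoc3 (0.97), Slc47a1 (0.97) and Ccdc149 (0.96), and 53 genes exceeded 0.9. For Cacnb2 A_51_P283300 they were Spock1 (r = 0.98), Gpr107 (0.97), Cbl (0.97), Fbxo44 (0.965) and Duoxa1 (0.965), and 127 genes exceeded 0.9. These are descriptions over 8 points on 4 arrays with the diet means left in, and no function is read from them.

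**Figure D4:**
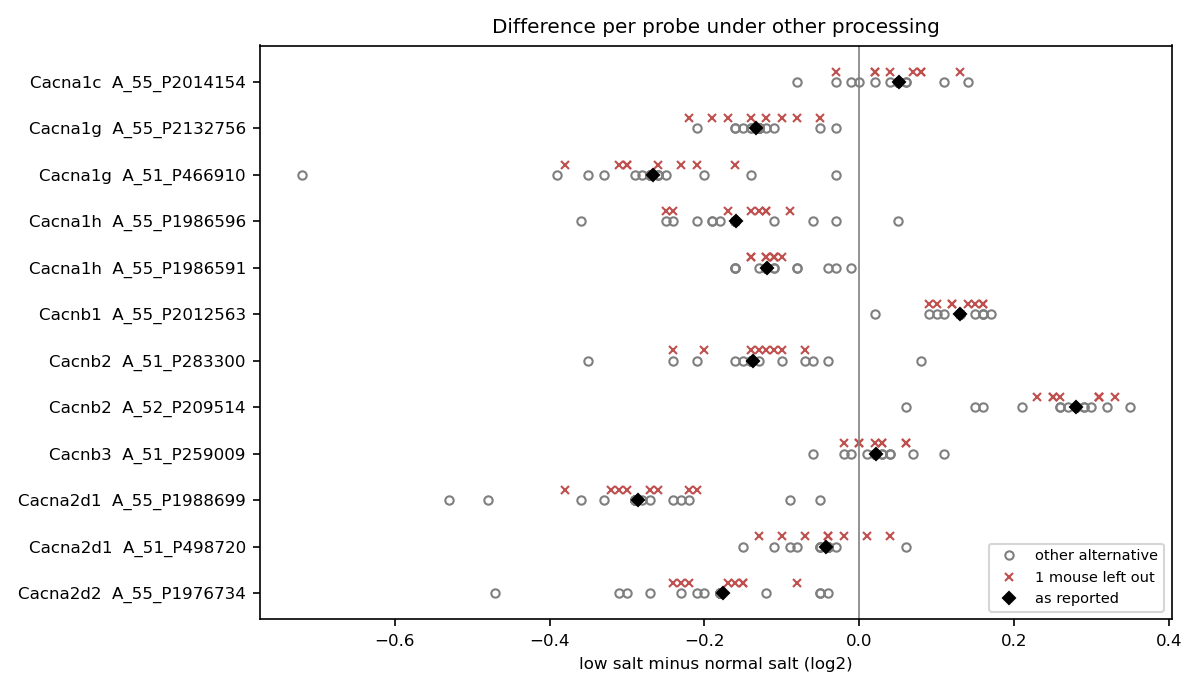
Difference between low salt and normal salt (log2) for each tested subunit probe as reported (black diamonds), with 1 mouse left out (crosses) and under the other alternatives (open circles). Cacnb1 and Cacnb2 A_52_P209514 stayed above 0 in every alternative that gave them a value. The Cacna1g probes, Cacna1h A_55_P1986591, Cacna2d1 A_55_P1988699 and Cacna2d2 A_55_P1976734 stayed below 0 in the same way. Cacna1c, Cacnb3 and 3 others lay on both sides of 0, and no difference passed the threshold in any of the 29 alternatives.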

How the data were processed

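Spot intensity and local background in each channel were deposited as the authors read them from the image with Agilent Feature Extraction 11.5.1.1 (protocol GE2_1105_Oct12), per the file headers. Both samples of an array have the same table, and each was read in its own dye. The deposited value table of the series was not used, because its rows carry numbers only.

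Mean signal and background median were corrected by normexp (offset 50; where the local background was flagged as an outlier, the channel's median background was used), then normalised in limma 3.58.1 (R 4.3.3; statmod 1.5.0) by loess within each array and Aquantile between arrays, on the log2 scale. Control and flagged spots were left out, spots of a probe were averaged, and a probe was tested if 4 or more samples had it well above background (23236 of 39429). The model held diet and dye, with array as a random block (correlation 0.553), eBayes, and p-values adjusted over all probes by Benjamini-Hochberg (threshold 0.05, 2-sided). The 4 mice of a diet are biological replicates per the series' design text. The fit was tested on simulated data. A local trend is the running median over 10 rows and 5 columns on each side of a spot, and a part was called uneven where it differed between diets by more than 0.1.

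All probes of the 9 genes are named. Of the channel family, regulator and coupling lists, the 3 genes with the smallest p are named, except for a result not reported here, and Myl4, Myl7, Sln and Nppa whatever their result. Genes and markers beyond these were added after their values were seen. The genes and lists were chosen with earlier results of these data known. Cacna1c and Cacnb2 likeness lists hold the 5 genes of highest correlation. Placing the probes in the proteins was planned and not done here.

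Same-numbered mice of the diets share a dye. Their deviations from the diet means correlated at 0.292, 0.141, 0.153 and 0.197 for mice 1 to 4, with the dye effect left in. With dye means removed, the deviations of mice 1 and 3 in a diet mirror each other, as do those of mice 2 and 4. The correlation was then 0.193 for mice 1 and 3 and 0.108 for mice 2 and 4, each the same by construction. These values cannot settle whether same-numbered mice are paired, and the number was used as a block only as an alternative.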

Additional observations from a re-analysis of the deposited data

Results flagged for a closer look

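In the low salt group, the value of Cacnb2 A_52_P209514 in mouse 2, at 8.09, stood apart from those of the other 3 mice, of which the nearest was 8.33. Its gap was 0.874 of the group's range, above Dixon's 95% critical value for 4 samples. Of 24 groups of 4 values examined, 2 diets for each of 12 probes, 1 was flagged, and chance flags about 1 in 20. Without this mouse the difference of the probe was 0.33 (limma adjusted p = 0.469).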

How the results depend on the processing

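In all 29 alternatives 0 of the tested subunit probes passed the threshold of 0.05, with a smallest adjusted p of 0.112 (Cacnb2 A_52_P209514 with no array block) and a median difference over the probes between -0.15 and -0.03. The count over all probes, 189, changed more. It was 45 (38 higher, 7 lower) with the scanner's processed signal, 82 (68 higher, 14 lower) with the local trend subtracted, 1 in even parts alone, 804 with no array block and 312 with the mouse number as a replicate block. It was 0 with no normalization between arrays, with arrays averaged, in Cy3 and in Cy5 samples alone, where limma gave 976, 1991, 2333 and 1603 probes an unadjusted p under 0.05. Without 1 mouse it lay between 70 and 152. It was 348 without array N1-2, 107 without array L1-2, and 1392 (571 higher, 821 lower) without array L3-4. Signs turned for 5 probes that were never called. Cacna1c read -0.08 with the processed signal, -0.03 in Cy3 samples and -0.01 without array N1-2, and between -0.03 and 0.13 without 1 mouse. Cacnb3 read -0.06 in Cy3 samples, -0.01 with the local trend subtracted and -0.02 without array N1-2, and between -0.02 and 0.06 without 1 mouse. Cacna2d1 A_51_P498720 read 0.06 in Cy5 samples and between -0.13 and 0.04 without 1 mouse. Cacnb2 A_51_P283300 read 0.08 without array L1-2, and Cacna1h A_55_P1986596 0.05 without array L3-4. Cacna1g A_51_P466910 read -0.72 with the processed signal. The cause was not tested. Signal over background limits Cacna1d and the dim probes of Cacna1h, Cacnb2 and Cacna2d2, and 4 arrays limit every interval.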
